A study of Mus musculus with 18 samples.

Results

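The Chd chromatin remodellers are the 9 genes *Chd1* to *Chd9*, matched by symbol among the 51912 genes of the deposited counts. All 9 passed the filter of at least 10 read pairs over the libraries and were among the 24495 genes tested. The family was selected on the ethanol effect of *Chd3*, which was higher with ethanol in the immunoprecipitated RNA and lower with ethanol in the input RNA, so these values of *Chd3* are given as a description without a test, and calls in the ethanol comparisons were counted over the other 8 members.

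Primary astrocytes were grown from the cortex of postnatal day 0 pups of both sexes hemizygous for the transgene Tg(Aldh1l1-EGFP/Rpl10a)JD130Htz on a B6;FVB background, from a cross to C57BL/6J, which makes EGFP-tagged RPL10A, a ribosomal protein, in cells that use the *Aldh1l1* (astrocyte) promoter. All dishes carried the transgene, were cultured for 14 days before and 6 days after subculture, had no serum for 24 h, and then received serum-free medium with 50 mM ethanol or without it for 24 h. In translating ribosome affinity purification (TRAP), tagged ribosomes are pulled down with GFP antibodies, so the IP fraction is the RNA held by those ribosomes, whereas the input fraction is RNA of the lysate before the pull-down, from all cells of the dish. IP libraries came from 6 control and 6 ethanol dishes, and input libraries from 3 of these control and 3 of these ethanol dishes. The study calls the dishes independent. Whether they came from separate litters or platings, or shared a sealed treatment chamber, was not stated, so p-values measure the spread between dishes.

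CHD proteins use the energy of ATP to slide, space or evict nucleosomes, and they share paired chromodomains, which bind histone tails, and a helicase-type ATPase engine of the Snf2 family. *Chd1* and *Chd2* encode remodellers that travel with transcribing RNA polymerase. *Chd3*, *Chd4* and *Chd5* encode alternative ATPases of the NuRD complex, which joins nucleosome remodelling with histone deacetylation, and *Chd5* is known for its expression in neurons. *Chd6*, *Chd7*, *Chd8* and *Chd9* form the third subfamily, in which *CHD7* is the gene mutated in CHARGE syndrome and *CHD8* is a gene often mutated in autism.

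The shared part of the ATPase engine shows how close the paralogues are. The coding stretch of 60 bases around the DEAH box, a motif of ATP hydrolysis in this engine, is shown for each member. It is taken from the GENCODE M21 transcript (GRCm38, each within a single exon, coding strand), with the 4 codons of the box in capitals.
*Chd1* (chr17:15738497-15738556, plus strand, exon 14 of 36): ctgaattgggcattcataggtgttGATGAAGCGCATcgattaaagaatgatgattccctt
*Chd2* (chr7:73490595-73490654, minus strand, exon 16 of 39): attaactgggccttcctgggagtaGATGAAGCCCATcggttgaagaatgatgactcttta
*Chd3* (chr11:69356938-69356997, minus strand, exon 16 of 40): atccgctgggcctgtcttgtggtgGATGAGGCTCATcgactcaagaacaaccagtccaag
*Chd4* (chr6:125108737-125108796, plus strand, exon 17 of 39): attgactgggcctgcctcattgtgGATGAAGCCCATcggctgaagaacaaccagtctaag
*Chd5* (chr4:152370583-152370642, plus strand, exon 16 of 42): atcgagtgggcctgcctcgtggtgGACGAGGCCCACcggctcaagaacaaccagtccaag
*Chd6* (chr2:161018056-161018115, minus strand, exon 13 of 37): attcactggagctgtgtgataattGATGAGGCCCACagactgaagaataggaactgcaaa
*Chd7* (chr4:8828319-8828378, plus strand, exon 13 of 38): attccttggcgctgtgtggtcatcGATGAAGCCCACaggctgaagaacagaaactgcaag
*Chd8* (chr14:52219627-52219686, minus strand, exon 13 of 37): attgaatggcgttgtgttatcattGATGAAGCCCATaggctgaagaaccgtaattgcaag
*Chd9* (chr8:90994547-90994606, plus strand, exon 14 of 40): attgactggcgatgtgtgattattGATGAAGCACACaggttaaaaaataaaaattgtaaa
Within this stretch *Chd3*, *Chd4* and *Chd5* shared 48 to 51 of 60 bases in pairs, *Chd1* and *Chd2* shared 45, and the 6 pairs among *Chd6* to *Chd9* shared 44 to 49. The 26 pairs from different subfamilies shared 29 to 44. Base composition differed even among close paralogues: G and C made up 63.3% of the stretch in *Chd5*, 55.0% in *Chd3* and 51.7% in *Chd4*, against 30.0% in *Chd9*. The same order held over the longest transcripts of the NuRD-type genes, at 57.4% in *Chd5* (9486 bases), 56.1% in *Chd3* (7261 bases) and 52.9% in *Chd4* (6697 bases). All 9 transcripts were long, from 6697 bases to 12008 bases in *Chd9*, and their GC content began at 43.2% in *Chd1* and 45.1% in *Chd9*.

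Library depth, as pairs assigned to genes, ran from 74239854 to 132810705. Individual members were covered by 638 to 1995 read pairs per library for *Chd5*, the lowest, and by 23588 to 51599 for *Chd4*, the highest. All 10 astrocyte markers were detected, with a summed level of 1515 to 1595 CPM (read pairs scaled to library size with TMM) in input and 2383 to 2562 CPM in IP. The 8 microglial markers summed to 60.7 to 75.8 CPM in input and 9.63 to 13.2 CPM in IP, and the 9 neuronal markers to 161 to 172 CPM and 207 to 231 CPM. The 8 markers of the oligodendrocyte lineage summed to 161 to 184 CPM in input and 250.1 to 289 CPM in IP, and the 4 fibroblast markers to 207 to 215 CPM and 98.1 to 116 CPM. *Olig1* held most of the oligodendrocyte lineage sum, with means of 126 CPM in input control and 207 CPM in IP control. Of these 8 markers 4 were called higher and 3 lower in IP vs. input, with a median log2 fold change of 0.01. Markers of endothelial and mural cells summed to 893 to 1364 CPM in input and 1048 to 1758 CPM in IP for the 6 of 7 that passed the filter. *Acta2* held most of these sums, with means of 1186 CPM in input control and 1589 CPM in IP control, while *Kdr* had 3.34 and 5.20 CPM. In bulk RNA, fewer cells of a type and less RNA per cell cannot be told apart.

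Levels of different members were compared per kilobase of the longest transcript, as CPM per kb. *Chd4* was the most abundant member in every group, at 50.4 ± 0.423 CPM per kb (SD, n = 3) in input control and 58.6 ± 1.05 (SD, n = 6) in IP control. *Chd3* came next, at 16.0 ± 0.297 CPM per kb (SD, n = 3) in input control and 17.5 ± 0.184 (SD, n = 6) in IP control, and *Chd8* followed at 9.94 ± 0.187 (SD, n = 3) and 12.03 ± 0.249 (SD, n = 6). The libraries of these members did not overlap with those of the next in order in any group.

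*Chd1*, *Chd6* and *Chd2* formed the middle of the order in input control, at 7.82 ± 0.213, 7.32 ± 0.291 and 6.75 ± 0.0429 CPM per kb (SD, n = 3). *Chd1* and *Chd6* could not be separated there, since their libraries overlapped, and in IP control the order of the means was *Chd6* (8.64 ± 0.290, SD, n = 6) before *Chd1* (8.16 ± 0.180, SD, n = 6), again with overlap. *Chd9* stood at 4.39 ± 0.143 CPM per kb (SD, n = 3) in input control. The lowest members were *Chd7*, at 1.30 ± 0.00255 CPM per kb (SD, n = 3), and *Chd5*, at 0.839 ± 0.0624 (SD, n = 3), which did not overlap in input. In IP control *Chd5*, at 1.38 ± 0.0911 CPM per kb (SD, n = 6), overlapped with *Chd7*, at 1.34 ± 0.0803 (SD, n = 6). The upper and lower ends of this order did not depend on the length used, but per kilobase of all annotated exons *Chd1* ranked above *Chd8* in all 4 groups.

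**Figure D1:**
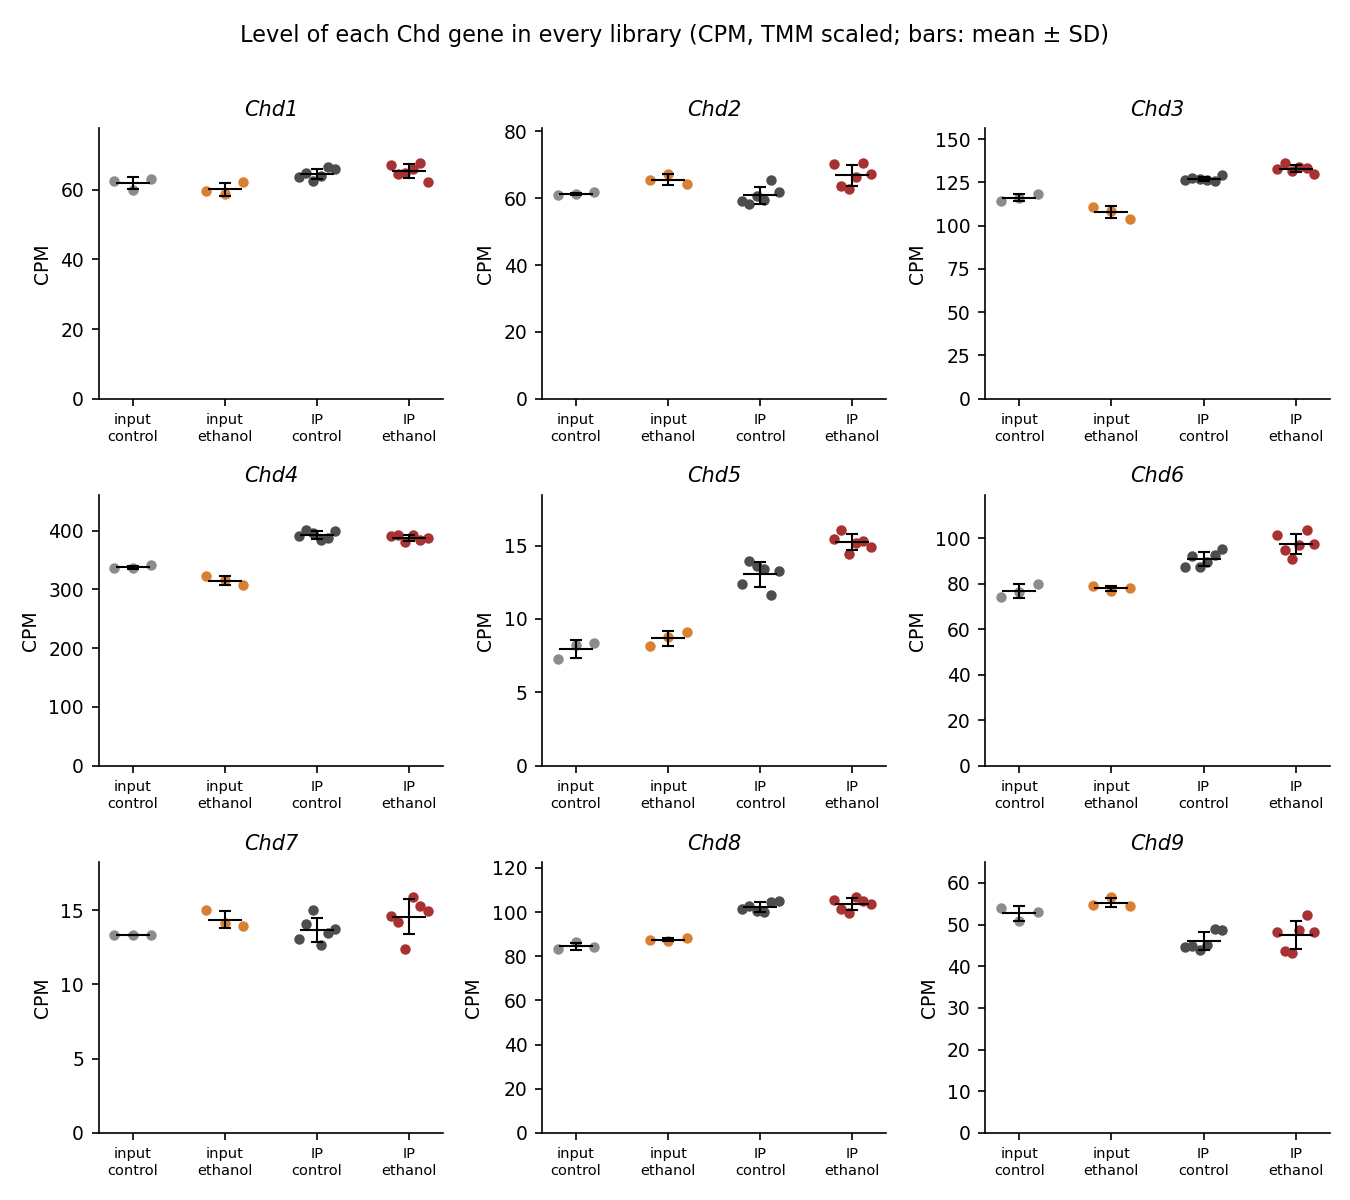
Level of each Chd gene (CPM, scaled with TMM, y axis from 0) in every library of the 4 groups, with the mean and SD as bars. *Chd5* lies at 7.28 to 9.14 CPM in input and 11.6 to 16.0 CPM in IP, and *Chd9* is the member whose mean is lower in IP.

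Comparing IP vs. input asks which transcripts of the family were relatively enriched on tagged astrocyte ribosomes. 7 of 9 members differed between the fractions, 6 with higher read counts in IP and 1 with lower. Among all genes tested, 51% were called in this comparison, 25.2% higher and 25.8% lower, so a call by itself was common. That share includes genes with few reads. Under a filter of at least 1 CPM in 3 libraries, which every member passed, 10688 of 13850 genes were called, 5268 of them higher. The median log2 fold change of the members was 0.21, beside -0.03 for all genes. All genes were not matched to the members in level, GC content or transcript length.

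*Chd5* had the largest enrichment. Its input libraries lay at 7.28, 8.25 and 8.35 CPM in control and 8.14, 8.76 and 9.14 CPM in ethanol, and its IP libraries ran from 11.6 through a median of 13.4 to 14.0 CPM in control and from 14.4 through 15.2 to 16.0 CPM in ethanol. Every IP library was above every input library. The log2 fold change of *Chd5* was 0.76 ± 0.04 (SE, adjusted p = 9.0e-27, edgeR), and it was the sole member called against a fold change of 1.2. Markers of neurons, the cells for which *Chd5* is known, were higher in IP in 5 of 9 genes and lower in 1, with a median log2 fold change of 0.35, and their part in the *Chd5* value was not tested.

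*Chd4*, *Chd8* and *Chd6* were enriched by similar amounts. Over all libraries of a fraction, *Chd4* ran from 307 through a median of 329 to 341 CPM in input and from 381 through 391 to 400.4 CPM in IP. *Chd8* ran from 83.2 through 86.7 to 88.2 CPM in input and from 99.4 through 103 to 107 CPM in IP. *Chd6* ran from 74.1 through 77.7 to 80.2 CPM in input and from 87.7 through 93.8 to 104 CPM in IP. None of these ranges overlapped between the fractions. The log2 fold changes were 0.26 ± 0.02 for *Chd4* (SE, adjusted p = 1.3e-20, edgeR), 0.26 ± 0.02 for *Chd8* (SE, adjusted p = 1.2e-18, edgeR) and 0.28 ± 0.02 for *Chd6* (SE, adjusted p = 9.0e-17, edgeR).

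*Chd3*, whose IP vs. input difference was not used to select the family, was also higher in IP, by 0.21 ± 0.02 on the log2 scale (SE, adjusted p = 1.2e-13, edgeR), again with no overlap between fractions. In all, 5 of 9 members had no overlap between IP and input libraries, beside 25% of all genes. Here and below, shares without overlap include genes with few reads, which may overlap more often than the members for that reason alone. *Chd1* rose less, by 0.09 ± 0.02 (SE, adjusted p = 0.00035, edgeR), with overlapping libraries, and without TMM this call was lost (0.04, adjusted p = 0.13).

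*Chd9* was the exception in direction. It ran from 50.8 through a median of 54.3 to 56.6 CPM in input and from 43.3 through 46.6 to 52.3 CPM in IP, with overlap, and was lower in IP with a value of -0.21 ± 0.03 on the log2 scale (SE, adjusted p = 5.9e-08, edgeR). *Chd2* and *Chd7* showed no difference that passed the test, with log2 fold changes of 0.0079 (95% interval -0.04 to 0.06) and 0.03 (95% interval -0.05 to 0.10). The signs of these *Chd2* and *Chd7* values changed when TMM was left out.

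**Figure D2:**
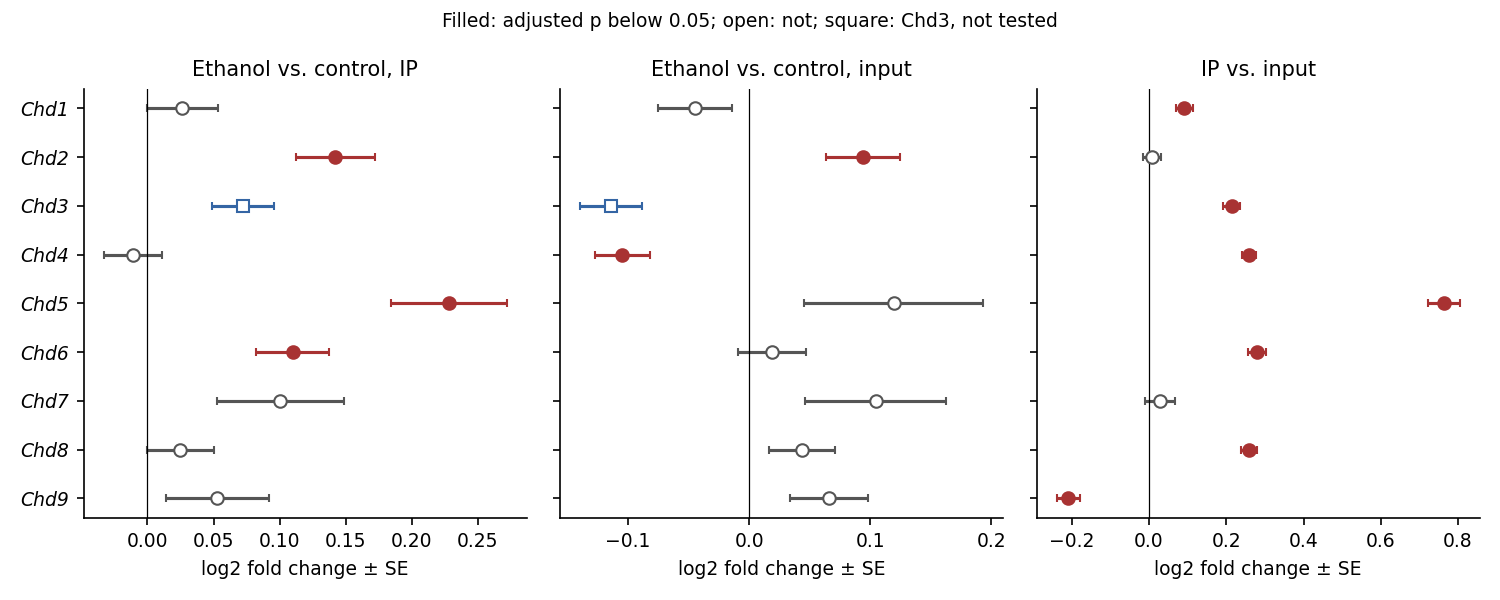
Log2 fold change with its SE (x axis) of each Chd gene for ethanol in IP, ethanol in input and IP vs. input. Filled circles passed an adjusted p of 0.05, open circles did not, and the open square is *Chd3* where it was not tested. *Chd5* has the largest values in IP (0.23) and in IP vs. input (0.76).

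In the IP fraction, 3 of the 8 members other than *Chd3* were upregulated by ethanol (*Chd2*, *Chd5* and *Chd6*) and 0 were downregulated. Among all genes, 21.4% were called in this comparison, 11.9% higher and 9.48% lower. Under the filter of at least 1 CPM in 3 libraries, 5394 of 13850 genes were called, 2645 of them higher. The median log2 fold change of the 8 members was 0.08, beside 0.0054 for all genes, and 7 of 8 values were positive.

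*Chd5* increased most. Its IP libraries ran from 11.6 through a median of 13.4 to 14.0 CPM in control dishes and from 14.4 through 15.2 to 16.0 CPM in ethanol dishes, so every ethanol library was above every control library. It was the 1 member of 8 with no overlap, beside 9.96% of all genes. The log2 fold change was 0.23 ± 0.04 (SE, adjusted p = 4.5e-05, edgeR).

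*Chd2* ran from 58.1 through a median of 60.1 to 65.5 CPM in control dishes and from 62.7 through 66.9 to 70.4 CPM in ethanol dishes, with overlap. It was upregulated by 0.14 ± 0.03 on the log2 scale (SE, adjusted p = 0.00023, edgeR). *Chd6* ran from 87.7 through 91.0 to 95.3 CPM in control dishes and from 90.9 through 97.2 to 104 CPM in ethanol dishes, also with overlap, and was upregulated by 0.11 ± 0.03 (SE, adjusted p = 0.0020, edgeR). All 3 calls held when each of the 12 IP libraries was left out in turn, with a highest adjusted p of 0.017, and within replicates 1 to 3 and within replicates 4 to 6.

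*Chd7* depended on the dishes. Its log2 fold change in IP was 0.10 ± 0.05 (SE, adjusted p = 0.14, edgeR), but -0.03 ± 0.06 (SE, adjusted p = 0.88) in replicates 1 to 3 and 0.21 ± 0.06 (SE, adjusted p = 0.0033) in replicates 4 to 6, which are the dishes that also gave input libraries. Without ethanol replicate 3, the lowest *Chd7* library of that group at 12.4 CPM, the value was 0.14 (adjusted p = 0.020).

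*Chd4* did not pass the test in IP. It ran from 383 through 393 to 400.4 CPM in control dishes and from 381 through 389 to 393 CPM in ethanol dishes, with a log2 fold change of -0.01 (95% interval -0.05 to 0.03). *Chd1*, *Chd8* and *Chd9* had log2 fold changes of 0.03 (95% interval -0.03 to 0.08), 0.02 (95% interval -0.02 to 0.07) and 0.05 (95% interval -0.02 to 0.13), which did not pass the test.

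*Chd3* ran from 126 through a median of 127 to 129.5 CPM in IP control and from 129.6 through 133 to 136 CPM in IP ethanol. The 2 groups were separated by a margin of less than 1 CPM, and the log2 fold change was 0.07 ± 0.02 (SE). It was 0.08 ± 0.04 (SE) in replicates 1 to 3 and 0.06 ± 0.03 (SE) in replicates 4 to 6. Both sets are parts of the libraries on which the family was selected, so their likeness is no separate evidence.

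In the input fraction, 2 of the 8 members other than *Chd3* were regulated by ethanol, *Chd4* downward and *Chd2* upward. Among all genes, 15% were called in this comparison, 7.21% higher and 7.78% lower. Under the filter of at least 1 CPM in 3 libraries, 3620 of 13850 genes were called, 1720 of them higher. The median log2 fold change of the 8 members was 0.06, beside -0.00092 for all genes. Control and ethanol libraries did not overlap for 5 of 8 members, beside 27.1% of all genes, in a comparison of 3 against 3. The share of 27.1% includes genes with few reads, and it was not taken under that filter.

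*Chd4* lay at 336, 336 and 341 CPM in the control dishes and at 307, 315 and 322 CPM in the ethanol dishes. All ethanol libraries were below all control libraries, and the log2 fold change was -0.10 ± 0.02 (SE, adjusted p = 9.7e-05, edgeR). The call held when each of the 6 input libraries was left out, with a highest adjusted p of 0.0053. *Chd2* lay at 61.0, 61.1 and 61.7 CPM in control and at 64.1, 65.4 and 67.3 CPM in ethanol, without overlap. Its log2 fold change was 0.09 ± 0.03 (SE, adjusted p = 0.016, edgeR), and the call was lost without control replicate 4 (adjusted p = 0.056), control replicate 5 (0.061) or ethanol replicate 5 (0.13).

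*Chd3* lay at 114, 116 and 118 CPM in input control and at 104, 108 and 111 CPM in input ethanol, without overlap. Its log2 fold change was -0.11 ± 0.03 (SE), close to the value of *Chd4* in the same libraries.

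The remaining members did not pass the test in input. *Chd7*, *Chd8* and *Chd9* had no overlap between treatments but log2 fold changes of only 0.10 ± 0.06, 0.04 ± 0.03 and 0.07 ± 0.03 (SE), with adjusted p of 0.26, 0.34 and 0.18 (edgeR). *Chd5* had 0.12 (95% interval -0.03 to 0.26), *Chd6* 0.02 (95% interval -0.04 to 0.07) and *Chd1* -0.04 (95% interval -0.10 to 0.02).

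Some marker lists also differed with ethanol. Markers of dividing cells were lower in 6 of 6 genes in both fractions, with a summed level of 71.6 to 74.0 CPM in input control against 50.6 to 56.5 CPM in input ethanol, and 69.7 to 77.9 CPM in IP control against 57.1 to 61.4 CPM in IP ethanol. Markers of endothelial and mural cells summed to 1293 to 1364 CPM in input control and 893 to 961 CPM in input ethanol, and to 1624 to 1758 CPM in IP control and 1048 to 1245 CPM in IP ethanol. Of their 6 tested genes 2 were called lower in each fraction, *Acta2* and *Kdr*. *Acta2*, which held most of the sums, went from a mean of 1186 to 790 CPM in input and from 1589 to 1069 CPM in IP. *Kdr* went from 3.34 to 2.35 CPM and from 5.20 to 3.93 CPM. *Cldn5*, a defining endothelial marker, was at 0 in all libraries. Microglial markers summed to 60.7 to 63.1 CPM in input control and 63.6 to 75.8 CPM in input ethanol, with 2 of 8 genes called higher. Astrocyte markers summed to 2383 to 2461 CPM in IP control and 2474 to 2562 CPM in IP ethanol, with 4 of 10 genes called higher and 1 lower. In input 4 were called higher and 4 lower, among them *Aldh1l1* at -0.13 (adjusted p = 9.4e-07, edgeR). Oligodendrocyte lineage markers summed to 271.3 to 289.2 CPM in IP control and 250.1 to 271.5 CPM in IP ethanol. Of these 8 genes 2 were called higher in IP and 3 in input, while *Olig1* was lower in both (-0.17 and -0.19). The part of these lists in the ethanol values of the Chd genes was not tested.

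Among the NuRD-type paralogues, *Chd5* (57.4%) was closest to *Chd3* (56.1%) in GC content and *Chd4* (6697 bases) closest to it (7261 bases) in transcript length, while the GC content of *Chd4* (52.9%) was nearer to that of *Chd7* (51.4%). The ratio of a pair of paralogues within a library does not depend on the scaling of libraries, and is given per kilobase as a log2 ratio without a test. *Chd3* to *Chd4* was -1.66 ± 0.02 (SD, n = 3) in input control and -1.67 ± 0.01 (SD, n = 3) in input ethanol, so that there was 0.317 and 0.315 as much *Chd3* as *Chd4*. In IP the log2 ratio was -1.75 ± 0.02 (SD, n = 6) in control and -1.66 ± 0.02 (SD, n = 6) in ethanol, and the control libraries (-1.77 to -1.72) lay below all ethanol libraries (-1.70 to -1.64) as well as below all input libraries. These ratios hold the ethanol values of *Chd3* that the family was selected on.

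*Chd5* stood differently to both. *Chd4* to *Chd5* was 60.2 in input control and 51.4 in input ethanol as a geometric mean ratio, and 42.7 in IP control and 36.1 in IP ethanol, with no overlap between treatments in either fraction. *Chd3* to *Chd5* was 19.1 in input control and 16.2 in input ethanol, and 12.7 in IP control and 11.4 in IP ethanol.

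**Figure D3:**
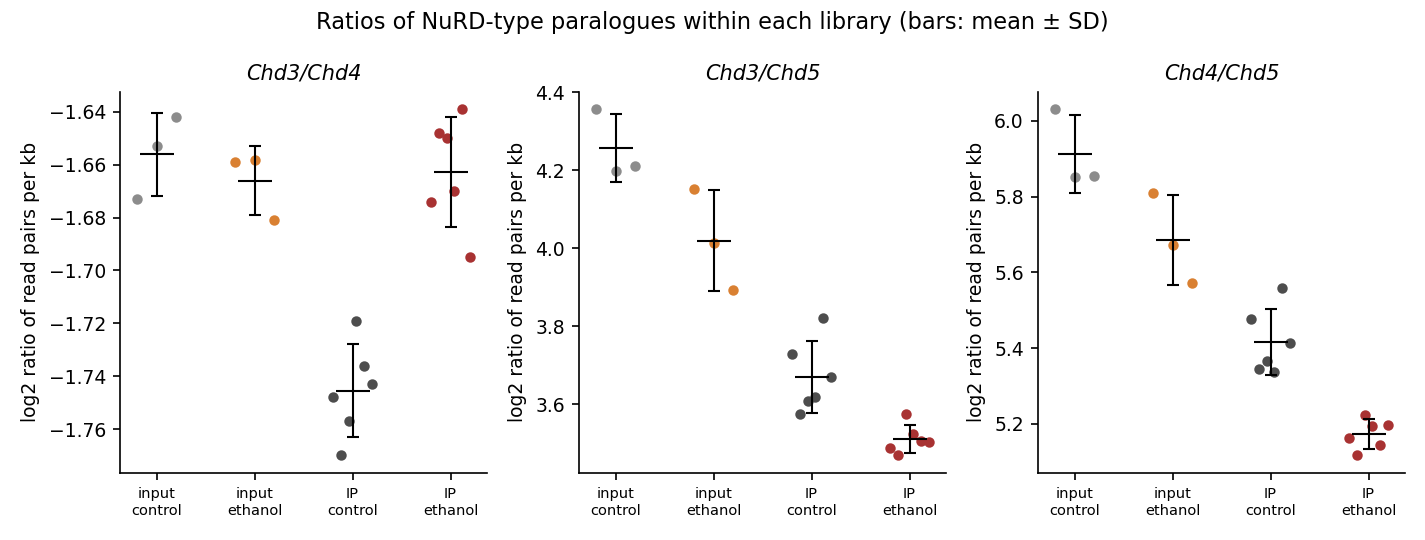
Log2 ratio of read pairs per kilobase (y axis) of *Chd3* to *Chd4*, *Chd3* to *Chd5* and *Chd4* to *Chd5* in every library, with mean and SD. The y axes do not start at 0. For *Chd3* to *Chd4* the IP control libraries (-1.77 to -1.72) stand below the other 3 groups.

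An interaction term in all 18 libraries tested whether ethanol acted differently in the 2 fractions. 0 of the 8 members other than *Chd3* passed (edgeR), as 0% of all genes did. At an unadjusted p below 0.05 there was 1 member, *Chd4*, and 1459 of all genes, and DESeq2 called 0 of these members and 2 of all genes. The difference of the ethanol effect, IP minus input, was 0.08 ± 0.04 for *Chd4* (SE, adjusted p = 0.80), 0.10 ± 0.08 for *Chd5* (SE, adjusted p = 0.90) and 0.08 ± 0.05 for *Chd6* (SE, adjusted p = 0.85). *Chd1* and *Chd2* had 0.06 ± 0.04 and 0.04 ± 0.05 (SE), and the values of *Chd7*, *Chd8* and *Chd9* were below 0, at -0.015 ± 0.08, -0.03 ± 0.04 and -0.02 ± 0.06 (SE), with adjusted p of 0.89 or more for these 5. For *Chd3* it was 0.175 ± 0.04 (SE), which restates the values the family was selected on.

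Input and IP libraries from the same dish allow the dish to be used as a block, in 12 libraries. This fit called 0.416% of all genes and again 0 of the 8 members (edgeR). Its values were 0.19 ± 0.04 for *Chd3* and 0.11 ± 0.03 for *Chd4* (SE), the latter with an adjusted p of 0.11.

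The ratio of IP to input in each dish shows what these values rest on. For *Chd3* the log2 ratio was 0.15, 0.12 and 0.13 in the control dishes and 0.27, 0.30 and 0.32 in the ethanol dishes. For *Chd4* it was 0.19, 0.20 and 0.23 in control and 0.28, 0.28 and 0.33 in ethanol. Ethanol dishes were above all control dishes for *Chd4*, *Chd6* and *Chd7*, 3 of the 8 members other than *Chd3*, and below them for 0 of 8. Over the 18704 genes with reads in all 12 libraries, the treatments did not overlap in 13.7%, and all ethanol dishes were higher in 6.82%. Genes with few reads are among these. Each of the 3 members had an exact permutation p of 0.1 (two-sided, n = 3 and 3), which is the smallest p that this design can give.

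*Chd7* was near even between fractions in control dishes, at -0.07, 0.02 and 0.04, and at 0.08, 0.12 and 0.10 in ethanol dishes, while its interaction over all 18 libraries had the opposite sign (-0.015). *Chd8* and *Chd9* had almost the same means in both treatments, 0.29 and 0.27 for *Chd8* and -0.15 and -0.15 for *Chd9*, with exact permutation p-values of 0.5 and 1 (two-sided, n = 3 and 3).

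**Figure D4:**
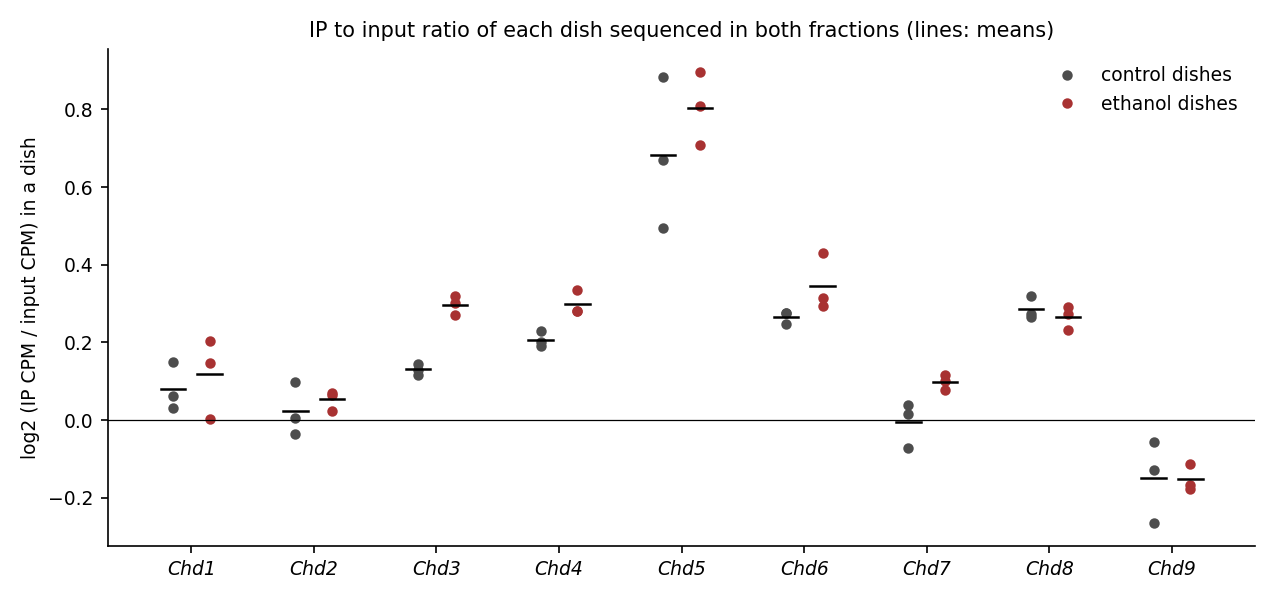
Log2 ratio of IP to input CPM (y axis) of each Chd gene in the 3 control and 3 ethanol dishes sequenced in both fractions, with lines at the means. Control and ethanol dishes are separate for *Chd3*, *Chd4*, *Chd6* and *Chd7*.

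For the ethanol comparisons, but not for IP vs. input, the members were also set against genes of similar GC content and transcript length. Across 13435 genes with at least 1 CPM, Spearman's rho of GC content with the ethanol log2 fold change was 0.05 in IP, -0.10 in input and 0.23 for their difference, and rho of transcript length was 0.26, 0.14 and 0.21. Genes are not independent replicates, and these are descriptions. In the GC decile of *Chd3* and *Chd5* (55.5% to 57.9%), the median difference of the ethanol effect over 1343 genes was 0.02, beside 0.175 for *Chd3* and 0.10 for *Chd5*. Among the longest transcripts (the top decile, over 6907 bases), which holds every member except *Chd4*, the median ethanol log2 fold change was 0.06 in IP and 0.02 in input. Over the 8 members counted, which include *Chd4* but not *Chd3*, the median was 0.08 in IP and 0.06 in input. Among the 8 members other than *Chd3*, rho of GC content was 0.12 in IP, 0.31 in input and 0.45 for the difference. The value in input had the opposite sign to that over all genes. Over all 9 members, rho of transcript length was 0.52 in IP, 0.65 in input and -0.43 for the difference. The last of these also had the opposite sign to that over all genes.

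Removing the trends of GC content and length within each library lowered the values in IP more than those in input. In IP, *Chd3* went from 0.07 ± 0.02 to 0.01 ± 0.02 (SE), while in input it went from -0.11 ± 0.03 to -0.12 ± 0.02 (SE). *Chd2*, *Chd5* and *Chd6* kept their calls in IP at log2 fold changes of 0.10, 0.15 and 0.07 (adjusted p of 0.00057, 0.0029 and 0.014, edgeR). *Chd4*, not called before, was called lower in IP at -0.05 ± 0.02 (SE, adjusted p = 0.025, edgeR) and stayed lower in input at -0.11 ± 0.02 (SE, adjusted p = 5.9e-06, edgeR). The difference between fractions was 0.12 ± 0.03 (SE) for *Chd3* after this step, a value that the family was selected on. It went from 0.08 to 0.04 for *Chd4*, from 0.10 to 0.03 for *Chd5* and from 0.08 to 0.05 for *Chd6*. For *Chd1* and *Chd2* it was then 0.06 and 0.008, and for *Chd7*, *Chd8* and *Chd9* -0.06, -0.06 and -0.05. None of these members other than *Chd3* passed the test (adjusted p of 0.88 or more, edgeR).

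**Figure D5:**
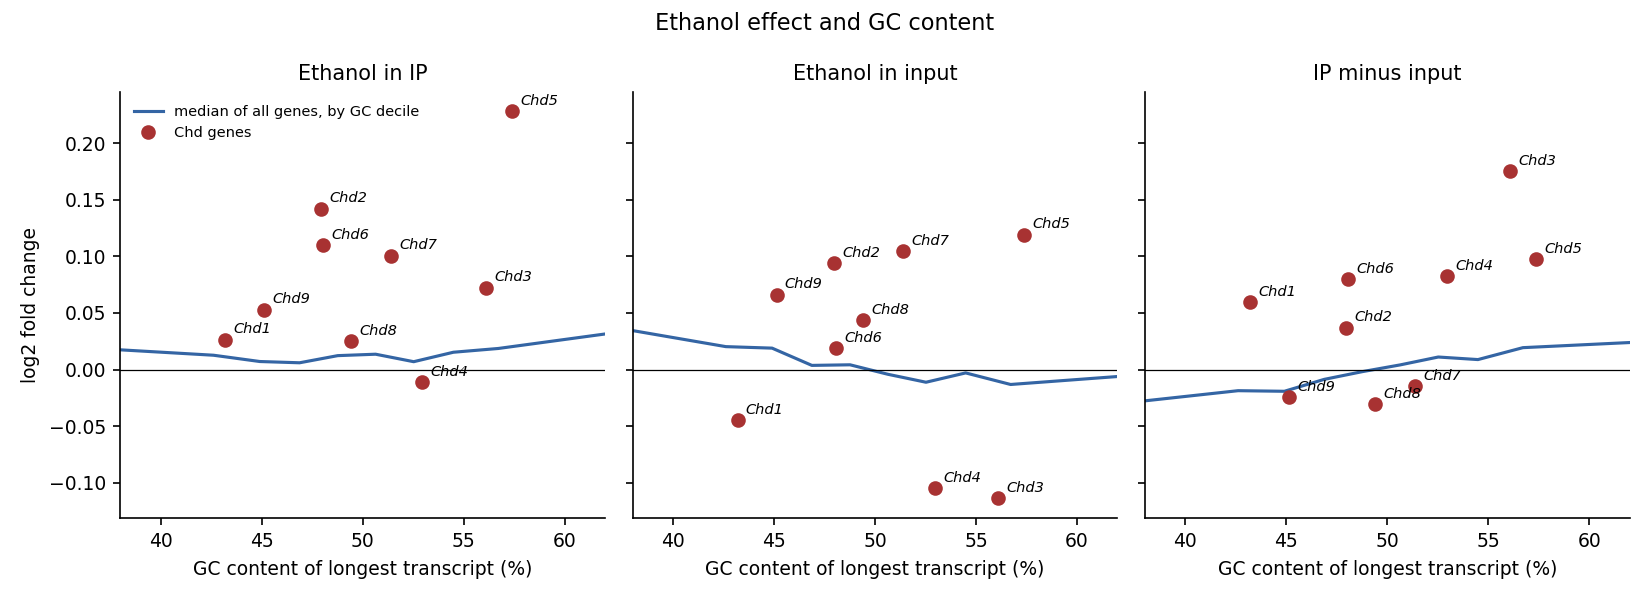
Log2 fold change (y axis) against GC content of the longest transcript (x axis) of the 9 Chd genes for ethanol in IP, ethanol in input and their difference, with the median of all genes in each GC decile as a line. *Chd3* (56.1% GC) lies at 0.07, -0.11 and 0.175, and *Chd5* (57.4%) at 0.23, 0.12 and 0.10.

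The genes that work with the Chd proteins and the other remodellers were described as lists, whose counts stand beside 21.4% of all genes called in IP and 15% in input. Under the filter of at least 1 CPM in 3 libraries, 5394 of 13850 genes were called in IP and 3620 in input. Among the 12 NuRD partners of *Chd3*, *Chd4* and *Chd5*, 6 were downregulated by ethanol in IP and 1 was upregulated, with a median log2 fold change of -0.06, and in input 5 were downregulated and 0 upregulated, with a median of -0.05. *Hdac1*, which encodes a histone deacetylase of the complex beside HDAC2, decreased in both fractions, from 98.9 ± 2.35 to 87.6 ± 2.17 CPM in IP (SD, n = 6, adjusted p = 4.6e-07, edgeR) and from 88.0 ± 0.728 to 79.7 ± 1.80 CPM in input (SD, n = 3, adjusted p = 2.9e-06, edgeR). *Mbd3*, a core subunit of the complex, decreased in IP by a log2 fold change of -0.13, and *Cdk2ap1*, a small subunit, in input by -0.12. *Gatad2b*, a scaffold subunit, was the exception in IP, with 0.08 (adjusted p = 0.024, edgeR).

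Of 20 other remodeller ATPases, 1 was upregulated and 2 were downregulated in IP, and the same numbers in input. These shares were below the 21.4% of all genes in IP and at the 15% in input. Beside the genes with at least 1 CPM in 3 libraries, they were below in both fractions. *Smarca4*, the BRG1 ATPase of BAF complexes, decreased in both fractions, from 347 ± 6.47 to 324 ± 5.13 CPM in IP (SD, n = 6, adjusted p = 0.0012, edgeR) and from 247 ± 5.17 to 227 ± 2.50 CPM in input (SD, n = 3, adjusted p = 2.1e-06, edgeR). *Hells*, linked to DNA methylation and to proliferating cells, decreased in IP by -0.34. *Smarca5*, the main ISWI ATPase, decreased in input by -0.10. *Hltf*, a translocase of replication fork repair, increased in both, by 0.13 in IP and 0.12 in input.

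Among 24 measured BAF subunits (of 26), 3 were higher and 4 lower in IP, and 1 was higher and 6 lower in input. The DNA-binding subunits *Arid1b* (0.15) and *Arid2* (0.17) increased in IP, and *Arid2* also in input (0.13). *Smarcd3* (-0.12) and *Actl6a* (-0.11) decreased in IP, and *Smarce1* (-0.14) and *Dpf3* (-0.72, from 0.991 ± 0.223 to 0.601 ± 0.10 CPM, SD, n = 3) in input.

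Of 10 ISWI partners, 1 was higher (*Rsf1*, 0.11) and 2 lower in IP, where *Baz1a* (-0.20), the large partner in the ACF complex, and *Pole3* (-0.12) decreased. In input 0 were higher and 2 lower, *Pole3* (-0.15) and *Pole4* (-0.10), which are histone-fold proteins shared with DNA polymerase epsilon. Of 27 INO80, SRCAP and TIP60 subunits, 5 were higher and 9 lower in IP, among them *Mbtd1* (0.27), *Actr5* (0.17) and the paired AAA+ ATPases *Ruvbl2* (-0.17) and *Ruvbl1* (-0.15). In input 3 were higher and 4 lower, with *Mbtd1* (0.21), *Yeats4* (0.18), *Ino80c* (-0.17) and *Mcrs1* (-0.13) at the ends. In the test of the difference between fractions 0 genes of any of these lists passed (edgeR), as 0% of all genes did.

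Annotation that overlaps the members touches their counts. Reads that overlap more than 1 gene are dropped when strand is not used, and 16 annotated genes overlap a member, 6 of them within exons. 9 of the 16 passed the filter, and 8 of these averaged below 1 CPM (Gm44686, Gm22442, Snord8, Gm26590, Gm6658, Gm45640, Gm45643 and Gm45641). Of these 8, Gm6658, opposite to *Chd9* without shared exon, was lower with ethanol in IP (-0.47, adjusted p = 0.037, edgeR). The remaining gene is 1810026B05Rik (*Chaserr*), a noncoding gene known to restrain *Chd2*, at chr7:73539203-73558395 on the minus strand, which shares 2628 bases of annotated exon with *Chd2* (chr7:73426638-73541830, minus strand). It lay at 8.83 ± 0.449 CPM in input control and 9.25 ± 0.764 in input ethanol (SD, n = 3), and at 5.78 ± 0.390 in IP control and 6.19 ± 0.284 in IP ethanol (SD, n = 6). It was lower in IP with -0.60 ± 0.05 on the log2 scale (SE, adjusted p = 7.6e-19, edgeR), unlike *Chd2*, and its ethanol values of 0.10 in IP and 0.06 in input did not pass the test (adjusted p of 0.23 and 0.66, edgeR). On single strands, read pairs opposite to the annotated gene made up at most 0.832% for *Chd8*, which has an antisense neighbour (Gm26590, 953 bases of shared exon), and at most 0.567% for any other member. Counted on the sense strand alone, *Chd9* was lower in IP by -0.14 ± 0.03 (SE, adjusted p = 1.3e-06, edgeR).

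The likeness of other genes to *Chd3* over 18 libraries is given as a description. Of 11065 genes that averaged 5 CPM or more, the Pearson correlation of log2 CPM with *Chd3* was highest in *Ube3b* (0.97), a ubiquitin ligase gene, *Ttyh3* (0.97), a membrane protein gene, and *Ccdc88c* (0.96), a gene of Wnt signalling. These values contain the difference between IP and input and the ethanol effects of *Chd3* on which the family was selected. Within the 12 IP libraries they were 0.76, 0.85 and 0.84.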

How the data were processed

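The authors trimmed reads with Trimmomatic, aligned them with STAR to GRCm38 and deposited raw read-pair counts per gene, unstranded, for 18 libraries prepared with a stranded total RNA kit after rRNA depletion. No libraries were pooled, and the deposited counts equal the single-library counts (0 differences). On average 5.5% of pairs were ambiguous between genes and were not counted. Versions are not given in the sources used here.

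Members and gene lists were chosen with earlier results of these data known. The 24495 genes that reached 10 read pairs in total entered the fits of edgeR 4.0.16 (TMM, robust quasi-likelihood test) in R 4.3.3, with Benjamini-Hochberg adjustment over all genes and a threshold of 0.05. SE is the absolute log2 fold change divided by the square root of F, and 95% intervals are 1.96 SE to each side. Ethanol was tested within each fraction, IP vs. input with a term for treatment, and the difference of effects as an interaction. DESeq2 1.42.0, other scalings, filters, strand use, dish blocks and trends of GC content and length (splines with 4 degrees of freedom, GENCODE M21) were alternatives. The ratio per dish was tested by exact permutation. Named genes are the 9 members, genes overlapping them, 3 genes most like *Chd3*, and up to 2 called genes per list, direction and ethanol comparison. Input and IP of a number share a dish, and their deviations from group means correlated at 0.03 to 0.16. Whether equal numbers pair control with ethanol dishes was not stated. For control and ethanol libraries of equal number, these correlations were -0.11 to 0.27 in IP and 0.03 to 0.07 in input. The closest replicates differed by 4.06 times sampling noise (chi-square divided by its degrees of freedom). The fits were tested on simulated independent counts with the same dispersion for all genes. These held no dish effect and no trend of GC content or length, so they cannot show how the fits handle such features.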

Additional observations from a re-analysis of the deposited data

Results flagged for a closer look

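For *Chd3*, all 6 ethanol IP libraries lay above the mean of the IP control libraries, and all 3 ethanol input libraries below the mean of the input control libraries. The difference of the ethanol effect, IP minus input, was 0.175 on the log2 scale. This difference was not tested, since it was used to select the family. With trends of GC content and length removed, the value in IP was 0.01 ± 0.02 (SE) in place of 0.07 ± 0.02, and the difference was 0.12 ± 0.03 (SE). In the 18 sets of 6 IP libraries (9 members, 2 treatments), no library stood apart by Dixon's criterion.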

How the results depend on the processing

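Against a fold change of 1.2, 0 members were called for ethanol in IP, 0 for ethanol in input and 1 for IP vs. input, where 95, 55 and 4936 of all genes were called. Leaving out 1 library gave 1 to 2 members for ethanol in input. With the replicate number as a block, 3 members were called in IP and 2 in input, and with the dish as a block 7 in IP vs. input and 0 in the interaction, so no block changed a count of members. Over all genes the interaction called 0 genes, 102 with the dish block, 13 in the same 12 libraries without it, 46 with the block and GC and length trends removed, 2 with DESeq2 and 0 to 1 with a library left out. IP replicates 1 to 3 alone called 2995 genes. These signs changed, all in values that had not passed the test. With GC and length trends removed, *Chd1* in IP was -0.0021 and *Chd8* -0.017. *Chd1* was -0.0017 in IP replicates 4 to 6 and *Chd7* -0.027 in replicates 1 to 3. Without TMM, IP vs. input was -0.043 for *Chd2* and -0.023 for *Chd7*, and with at least 1 CPM in 3 libraries -0.023 and -0.0025. The interaction of *Chd7* was 0.12 with the dish block, 0.13 without it and 0.064 with the block and trends removed, that of *Chd9* 0.018 with the block and 0.018 without it, and that of *Chd8* 0.00028 without it. The dish ratio of *Chd9* was 0.0023 on the sense strand. With libraries left out, *Chd6* in input ran from -0.0075 to 0.047, *Chd2* in IP vs. input from -0.0041 to 0.016, and the interaction from -0.044 to 0.028 for *Chd7* and from -0.054 to 0.0015 for *Chd9*. The cause was not tested.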
